A study of Mus musculus with 3 samples.

Results

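The genes described here are the axon guidance genes of the ephrin, Slit-Robo and netrin systems. They were chosen by symbol alone, as every gene of the deposited tables named as an Eph receptor, an ephrin, a Slit, a Robo, a netrin, a netrin-G, an Unc5 receptor, Dcc, Neo1 or Draxin, which gave 41 of 31055 genes. These were 9 EphA and 5 EphB receptors, 5 ephrin-A and 3 ephrin-B ligands, 3 Slits, 4 Robos, 3 secreted netrins, 2 netrin-G proteins, 6 netrin receptors and Draxin. The retrograde virus retroAAV-CAG-H2B-GFP, which marks nuclei with green fluorescent protein under the broadly active CAG promoter, had been injected into the piriform cortex (PCx) and the anterior olfactory nucleus (AON) of adult male C57Bl/6 mice with no other treatment or genotype. Labelled nuclei of the olfactory bulb were then sorted from 3 mice, 1 library each, and their RNA was counted by UMIs, the random tags that identify single captured molecules. The 3 libraries held 5845, 21105 and 4753 nuclei, and so each value rests on 3 mice (n = 3), with mouse 2 the largest in nuclei and in total UMIs and mouse 3 the deepest per nucleus. Not all sorted nuclei were those of projection neurons. Markers of inhibitory neurons were carried by 10 clusters with 21236 of the 31703 nuclei. Those of projection neurons were carried by 5 clusters with 7504 nuclei. Whether the inhibitory nuclei had been labelled by the virus was not tested.

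In this family of cues, Eph receptors and ephrins are both bound to the cell surface and signal on contact, often in both directions. Slits are secreted proteins that repel axons through Robo receptors. Netrins attract axons through Dcc and repel them where an Unc5 receptor takes part, and netrin-G proteins are membrane-anchored relatives that bind ligands on dendrites and help to lay out synapses. In the olfactory system these genes are best known for sorting sensory axons into glomeruli, for guiding the lateral olfactory tract, in which mitral and tufted axons run, and for steering new interneurons on their way to the bulb.

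The projection neurons were described as 7 subclusters of the deposited table, named from marker genes: the mitral-like M1, M2 and M3, the tufted-like T1 and the external tufted-like ET1, ET2 and ET4. They held 686, 1149, 326, 2128, 703, 471 and 883 nuclei, in that order. M1 had only 14 nuclei in mouse 1, with 161593 UMIs, so that 3 UMIs there equal 18.6 CPM (UMIs of a gene per 1000000 UMIs of all genes in the same group of nuclei and mouse). M3 was the shallowest per nucleus, with median totals of 6866, 5662 and 4402 UMIs. The subclusters had been formed on these counts by the authors, with all genes able to contribute, and Ephb1 was among the 10 leading genes of ET2, so the p-values measure how far apart given groups of nuclei lie and do not test whether the groups exist. Between mice 1 and 2, 1 and 3, and 2 and 3, 39, 8 and 35 barcodes were shared, and 0.517% of nuclei carried a barcode that also occurred in another mouse.

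The windows that RefSeq (GRCm38.p6) gives just upstream of the start sites of Ntng1, Robo1, Ephb1 and Slit3 are shown because several results turn on these genes, Ntng1 and Robo1 between mitral-like and tufted-like types, Ephb1 in ET2 and Slit3 between inhibitory and projection neurons. Each holds 250 bases, written on the strand of the gene with the start site at the right, and capitals mark a GC box (GGGCGG, or CCGCCC for a match on the other strand).
Ntng1, chr3:110143473-110143722, minus strand: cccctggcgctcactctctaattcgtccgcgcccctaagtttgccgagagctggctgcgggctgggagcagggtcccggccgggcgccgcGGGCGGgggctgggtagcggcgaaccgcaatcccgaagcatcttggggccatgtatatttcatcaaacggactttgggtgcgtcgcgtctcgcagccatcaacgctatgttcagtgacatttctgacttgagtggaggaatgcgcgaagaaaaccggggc
Robo1, chr16:72662899-72663148, plus strand: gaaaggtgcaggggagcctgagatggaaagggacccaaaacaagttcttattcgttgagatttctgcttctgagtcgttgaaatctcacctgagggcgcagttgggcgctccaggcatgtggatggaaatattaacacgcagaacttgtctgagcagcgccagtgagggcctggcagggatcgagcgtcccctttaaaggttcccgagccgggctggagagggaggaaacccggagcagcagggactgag
Ephb1, chr9:102354694-102354943, minus strand: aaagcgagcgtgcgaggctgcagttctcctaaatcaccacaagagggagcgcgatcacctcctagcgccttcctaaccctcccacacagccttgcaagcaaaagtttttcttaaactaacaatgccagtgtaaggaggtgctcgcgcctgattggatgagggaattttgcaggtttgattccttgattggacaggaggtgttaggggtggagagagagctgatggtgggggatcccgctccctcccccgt
Slit3, chr11:35121206-35121455, plus strand: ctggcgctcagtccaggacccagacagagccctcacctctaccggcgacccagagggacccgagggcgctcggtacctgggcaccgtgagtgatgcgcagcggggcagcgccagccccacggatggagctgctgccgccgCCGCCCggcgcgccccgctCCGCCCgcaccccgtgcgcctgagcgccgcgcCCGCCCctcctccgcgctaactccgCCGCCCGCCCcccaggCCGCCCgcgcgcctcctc
The Slit3 window held 6 GC boxes (2 of them overlapping) and was 78.8% G and C, the Ntng1 window held 1 at 160 bases before the start and was 62.4% G and C, and the Robo1 and Ephb1 windows, at 56.0% and 54.0%, held none. Robo1 spans 738 kb of chromosome 16 from 72308306, and the window shown precedes a start site inside that span. The Ntng1 window also lies inside the annotated gene, which ends at 110144011, and the Slit3 window lies mostly inside a gene that begins at 35121224, whereas the Ephb1 window adjoins the outer end of its gene. Over 41 windows of 36 matched genes of the list, a GC box occurred in 28, beside 32.7% of all 32851 windows. The core site of T-box factors (GGTGTG or CACACC) occurred in 7 of the 41, beside 16.3% of all, and the core bound by LIM homeodomain factors (TAATTA) in 3, beside 4.84%. The EBF motif occurred in 1, beside 0.779%. A match is a description of letters and no site.

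Across the 7 projection neuron types, 34 of the 41 genes had enough counts to be tested, and all 34 differed between types (edgeR quasi-likelihood F test, adjusted p under 0.05 over all genes tested), beside 64.8% of all tested genes. In contrasts of each type against the mean of the other 6, which could be estimated for 31 of them, 24 were higher in at least 1 type (adjusted p under 0.05 and a log2 fold change above 1), beside 30.3% of all genes, and 26 were lower in at least 1, beside 25.5%. The listed genes are long, with a median span of 69.0 kb against 17.4 kb for protein coding genes, and the part of gene length in these shares was not tested.

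**Figure D1:**
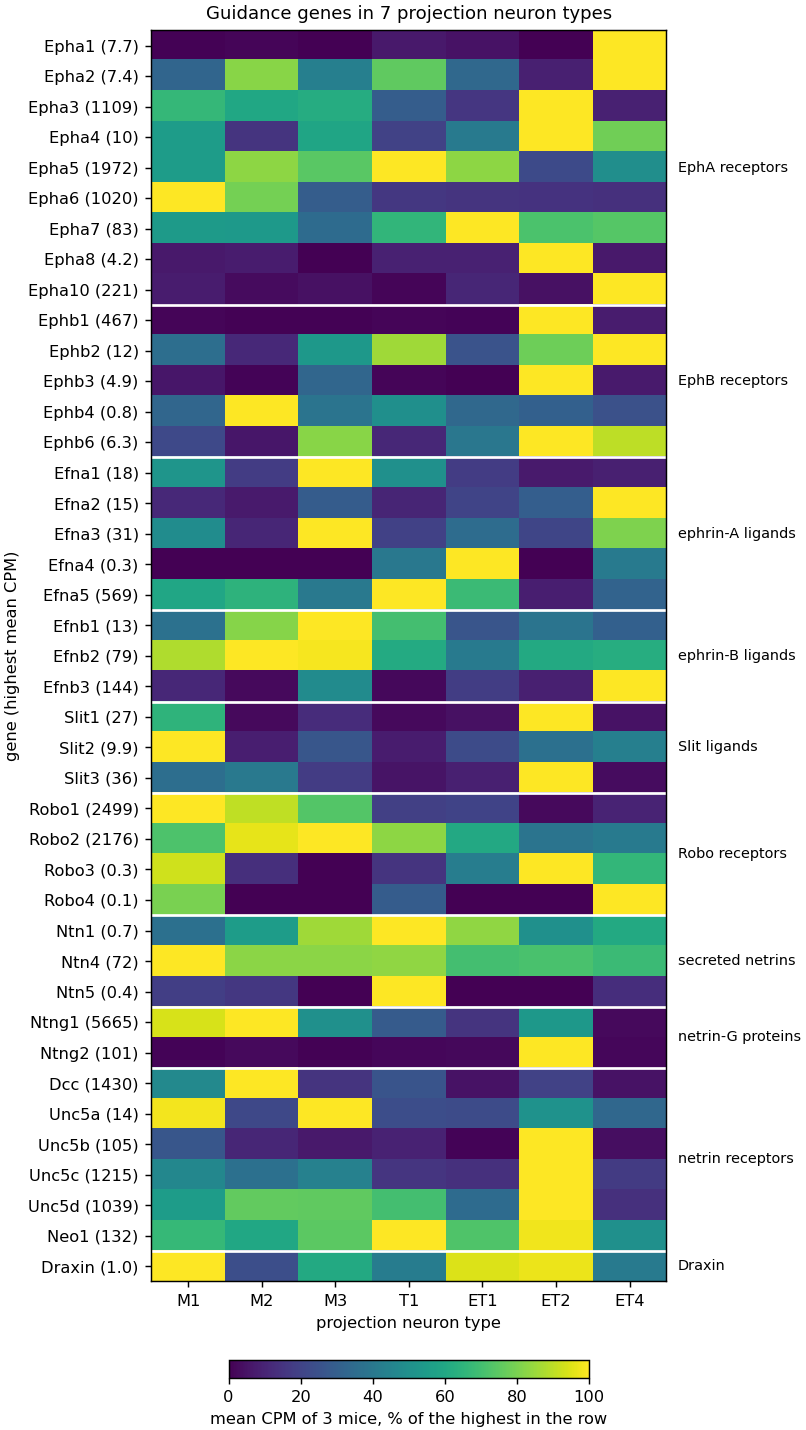
Mean CPM of the 41 genes in the 7 projection neuron types, each row scaled to its own highest type (colour, % of the highest) with that highest mean CPM in brackets. Ephb1 and Ntng2 are bright in ET2 alone, Epha10 in ET4 alone, Robo1 across the mitral-like types, and Ntng1 across the mitral-like types and ET2.

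Among EphB receptors, Ephb1 was the gene with the widest range. Its level was 450, 389 and 561 CPM in ET2 of mice 1, 2 and 3, against 32.7, 37.8 and 33.5 CPM in ET4 and at most 11.2 CPM in any library of the other 5 types. Thus no library of another type reached ET2, and ET4 came next and stood above the rest. The log2 fold change was 6.07 ± 0.15 (SE) in ET2 (adjusted p = 1.3e-20) and 1.66 ± 0.21 in ET4 (adjusted p = 3.6e-07), while Ephb1 was lower in M2 (-2.65 ± 0.32), M3 (-2.31 ± 0.53), ET1 (-1.36 ± 0.31) and T1 (-1.17 ± 0.25), the call in T1 being lost without mouse 2. To compare shares of nuclei at 1 depth, nuclei were thinned to 3000 UMIs each. Nuclei under that depth were left out, 68 of 326 in M3 and at most 11 in any other type, so that the M3 shares cover its 258 deeper nuclei. An Ephb1 molecule was seen in 66.5% of thinned ET2 nuclei (91.8% of all ET2 nuclei before thinning), in 9.60% of ET4 nuclei (17.7% before) and in 0.934% to 1.80% of nuclei of the other types (1.78% to 8.77% before). The remaining EphB receptors were low: Ephb2 peaked in ET4 at 11.5 CPM and was higher there (1.21 ± 0.29) and in T1 (1.28 ± 0.24), with both calls lost when the unnamed subclusters were added (0.79 and 0.82). Ephb6, a receptor without kinase activity, peaked in ET2 at 6.32 CPM, and its calls in ET2 and T1 were lost without mouse 1 or mouse 2 and that in ET4 without mouse 2. Ephb3 differed among types (adjusted p = 3.3e-06) on few UMIs, with 4.63, 5.16 and 4.94 CPM in ET2.

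EphA receptors were divided among the types. Epha10, another kinase-dead member, reached 195, 227 and 240 CPM in ET4 and at most 27.5 CPM in any other library, with a log2 fold change of 4.28 ± 0.15 (adjusted p = 2.2e-17). The ET4 libraries stood apart from all others, and thinned nuclei with an Epha10 molecule made up 42.1% of ET4 (73.2% before thinning) and 0.919% to 5.94% of the other types (3.90% to 18.7% before). Epha3 showed 1156, 1074 and 1096 CPM in ET2 and 116, 94.5 and 93.6 CPM in ET4, the highest and lowest ends of an order in which M1, M3 and M2 lay between them and overlapped. It was higher in ET2 (1.58 ± 0.12) and lower in ET4 (-2.50 ± 0.17) and ET1 (-1.39 ± 0.15). Epha6 was highest in M1 (619, 1166 and 1274 CPM) and M2 (848, 793 and 774 CPM), which overlapped each other and lay above every library of the other 5 types. Its log2 fold change was 2.22 ± 0.17 in M1 and 1.92 ± 0.17 in M2 (adjusted p = 1.2e-10 and 1.2e-09). Epha5 was broad, from 1835, 1983 and 2099 CPM in T1 to 437, 499 and 388 CPM in ET2, where it was lower (-1.74 ± 0.13, adjusted p = 6.6e-11). Epha7 had the narrowest range of mean levels in this class by the ratio of highest to lowest, from 29.0 CPM in M3 to 83.3 CPM in ET1. Epha1 and Epha8 were rare. Epha1 had 21, 49 and 9 UMIs in ET4 (8.37, 8.38 and 6.29 CPM) and at most 0.972 CPM elsewhere, and Epha8 had 4, 17 and 5 UMIs in ET2 (4.63, 4.39 and 3.53 CPM) and at most 0.972 CPM elsewhere. In the thinnest libraries elsewhere, a count of 0 allows up to 18.6 CPM (M1 of mouse 1) and 5.45 and 4.83 CPM (M3 of mice 1 and 3), so that these libraries cannot be set below ET2 for Epha8, nor the first of them below ET4 for Epha1. Fold changes were not estimated for either gene, because a type without any UMI leaves none, and the F tests gave adjusted p = 7.5e-08 and 0.00059.

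Ephrin ligands mirrored this division in part. The ephrin-A gene Efna5 was highest in T1, at 601, 531 and 576 CPM, and lowest in ET2, at 55.5, 55.0 and 33.9 CPM. No other type overlapped T1 or ET2, and the log2 fold changes were 1.56 ± 0.09 (adjusted p = 5.8e-13) and -2.78 ± 0.14 (adjusted p = 2e-14). Efnb3, a ligand of EphB receptors, showed 193, 123 and 115 CPM in ET4, 70.8, 57.4 and 80.6 CPM in M3, and 3.50, 4.13 and 2.31 CPM in T1. All ET4 libraries thus lay above all M3 libraries, and M3 above the remaining types, with log2 fold changes of 3.36 ± 0.16 in ET4 (adjusted p = 3e-15), 2.02 ± 0.23 in M3, -2.38 ± 0.24 in M2 and -2.69 ± 0.24 in T1. Efna2 followed with 15.6, 13.5 and 16.8 CPM in ET4 (2.36 ± 0.28, adjusted p = 1.4e-07) and at most 7.94 CPM elsewhere, though the 0 of M1 in mouse 1 allows up to 18.6 CPM. Efna3 was higher in M3 (1.64 ± 0.30) and ET4 (1.32 ± 0.24), whose libraries overlapped, and Efna1 had its highest mean in M3, at 32.7, 18.5 and 3.22 CPM, a spread that reached into the libraries of M1, M2, T1 and ET1. Efnb1 and Efnb2 were higher in no type, Efnb2 with means from 32.3 CPM in ET1 to 78.8 CPM in M2. In ET4, therefore, the 8 genes called higher (background 8.34%) were all Eph receptors or ephrins (Epha2, Epha10, Ephb1, Ephb2, Ephb6, Efna2, Efna3 and Efnb3), and the 10 called lower (background 9.36%) were Efna1, Epha3, Epha6, Ntng1, Robo1, Slit3, Dcc and the Unc5 genes Unc5b, Unc5c and Unc5d, and so held 3 genes of the Eph and ephrin system too.

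**Figure D2:**
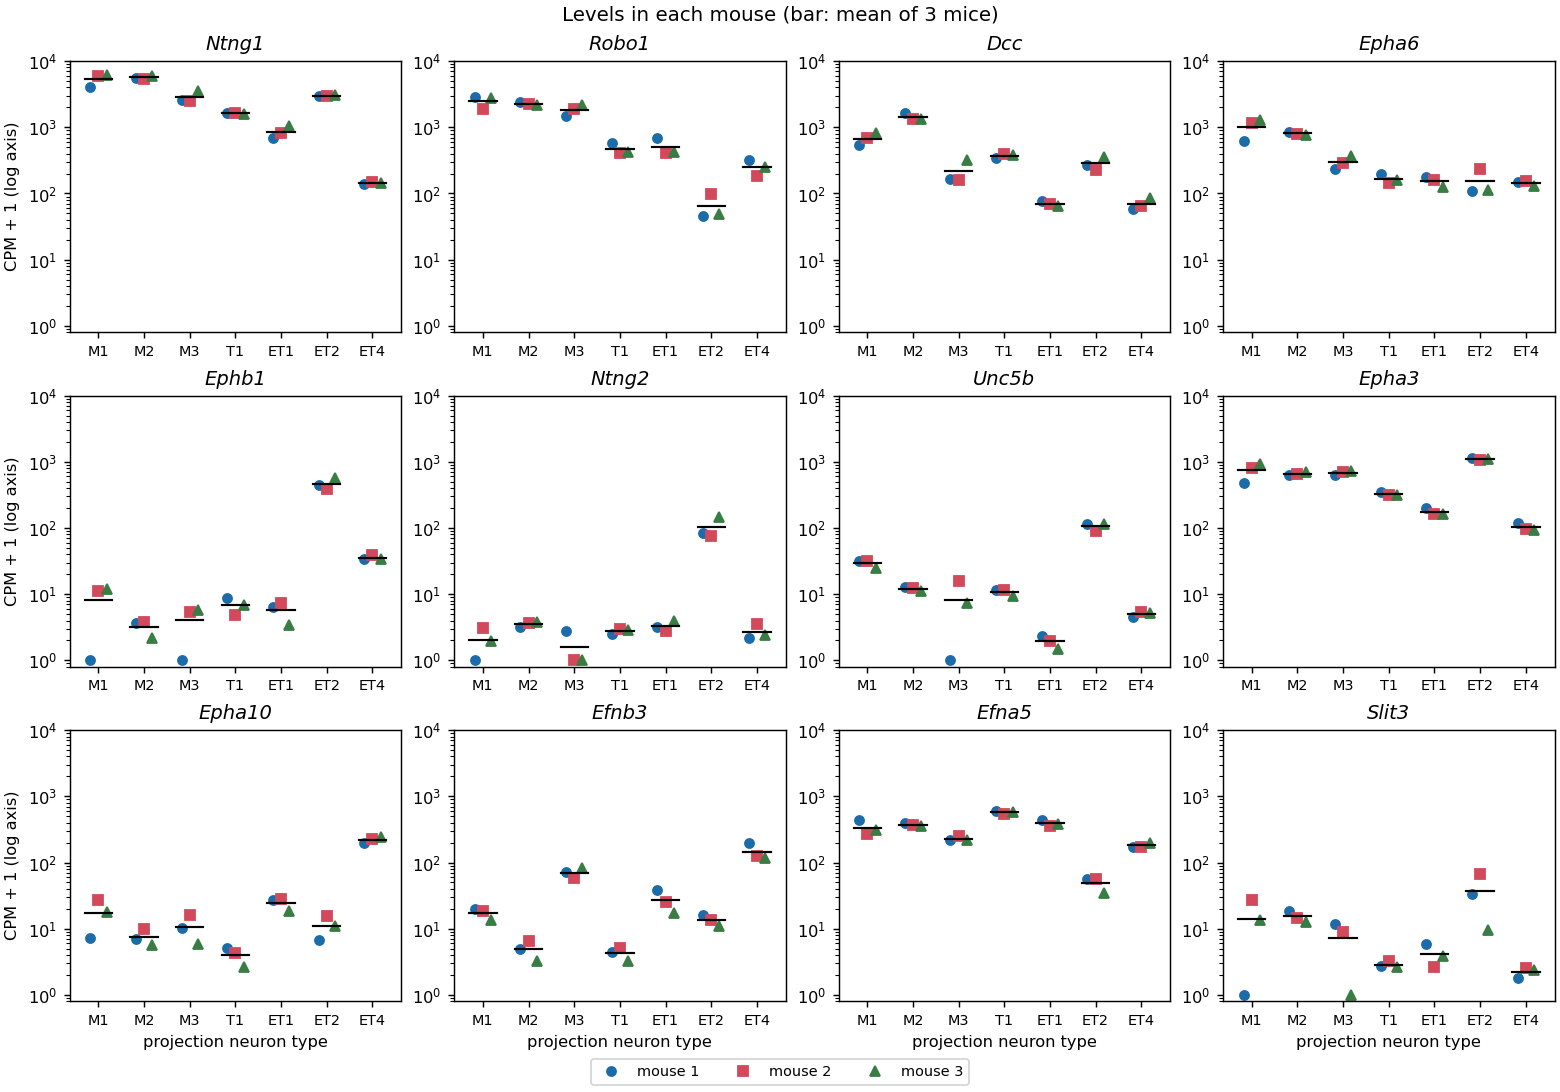
CPM + 1 on a log axis of 12 guidance genes in the 7 projection neuron types, with 1 point per mouse and a bar at the mean. The 3 mice lie close together for the abundant genes (Ntng1 in ET4, 138 to 150 CPM), whereas Slit3 spans 8.47 to 65.8 CPM within ET2.

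Of the Slit receptors, only Robo1 passed the fold threshold in any type. It reached 2853, 1908 and 2738 CPM in M1, 2400, 2223 and 2153 CPM in M2 and 1474, 1866 and 2159 CPM in M3. In T1 it was 585, 409 and 416 CPM, in ET1 686, 404 and 418 CPM, in ET4 316, 182 and 249 CPM, and in ET2 45.1, 97.3 and 47.3 CPM. Every mitral-like library therefore exceeded every tufted-like library, while neighbours within the mitral-like group overlapped. Against the other 6 types, Robo1 was higher in M1 (2.27 ± 0.16), M2 (2.32 ± 0.15) and M3 (1.60 ± 0.16) and lower in ET4 (-1.69 ± 0.21) and ET2 (-3.83 ± 0.25, adjusted p = 4.8e-12). Thinned nuclei with a Robo1 molecule made up 93.5% of M1, 87.4% of M2, 82.2% of M3 and 9.53% of ET2. Before thinning these shares were 98.9%, 97.2%, 73.2% and 19.5%, the M3 value being lower over all its nuclei than over the deeper ones. Robo2 was high in all types, from 2346, 2098 and 2083 CPM in M3 to 890, 837 and 783 CPM in ET2, and passed the fold threshold in no type. Robo3 and Robo4 were too rare to be tested here, with highest means of 0.258 and 0.133 CPM.

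The Slit ligands themselves were low in projection neurons. Slit1 was at 31.2, 16.5 and 32.5 CPM in ET2 and at 0, 24.0 and 28.1 CPM in M1, and at most 6.44 CPM in any other library; it was higher in ET2 (3.68 ± 0.34, adjusted p = 2.5e-09) and in M1 (3.68 ± 0.31, adjusted p = 6.2e-10), where the 0 of mouse 1 lies under its 18.6 CPM floor. Slit2 was highest in M1, at 0, 15.5 and 14.1 CPM (2.87 ± 0.28, adjusted p = 9.4e-09). Slit3 showed 32.4, 65.8 and 8.47 CPM in ET2, 17.8, 13.7 and 11.5 CPM in M2, 0, 26.1 and 12.6 CPM in M1, and 1.63 to 2.24 CPM in T1. It was called higher in ET2 (2.93 ± 0.34, adjusted p = 1.4e-07), M1 (1.81 ± 0.36) and M2 (1.49 ± 0.33) and lower in ET4 (-2.76 ± 0.64) and T1 (-1.91 ± 0.45). The Slit3 libraries of ET2 overlapped those of M2 and M1, and the call in M1 was lost without mouse 2 (1.40, adjusted p = 0.062) and that in M2 when the unnamed subclusters were added (0.76). Thinned nuclei with a Slit3 molecule reached only 6.65% in ET2 and 4.26% in M2 (16.0% and 16.9% before thinning).

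The level of Gad1 is given beside these low values, since RNA of other cells can be counted with a nucleus, and the part of such RNA in them was not tested. Gad1, an inhibitory neuron gene that projection neurons should lack, was at 913, 786 and 674 CPM in the inhibitory neurons of the 3 mice and at means of 30.4 CPM (M2) to 104 CPM (ET2) in the projection types, or 3.85% to 13.0% of the inhibitory level. The same share of the inhibitory Slit3 level comes to 31.1 CPM in ET2, beside the measured mean of 35.6 CPM, and to 9.31 CPM in M2, beside 14.3 CPM, with 2 of the 3 mice above it in each. In M1, M3, T1, ET1 and ET4, no mouse exceeded that share for Slit3. Epha4, with means of 1.56 to 10.3 CPM in projection types, lay under it by its mean in each type but ET4, where the mean of 8.04 CPM met a level from this share of 8.01 CPM. The Robo1 level from this share is 8.39 CPM in M2 against 2259 CPM measured. Dcc would be at 23.9 CPM in M2 against 1430 CPM measured.

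Of the netrin-G genes, Ntng1 was lowest in ET4 and Ntng2 was highest in ET2. Ntng1, which binds the synaptic protein encoded by Lrrc4c, was at 5627, 5442 and 5926 CPM in M2, 3998, 5874 and 6084 CPM in M1, 2965, 3002 and 3070 CPM in ET2 and 2553, 2461 and 3493 CPM in M3. T1 followed at 1616, 1625 and 1606 CPM, ET1 at 690, 817 and 1039 CPM and ET4 at 138, 150 and 145 CPM. M1 and M2 overlapped and ET2 and M3 overlapped, but T1, ET1 and ET4 each lay under all types above them. The log2 fold change was 2.14 ± 0.12 in M2 (adjusted p = 7.8e-13), 1.86 ± 0.13 in M1, -1.14 ± 0.16 in ET1 and -4.32 ± 0.20 in ET4 (adjusted p = 3.8e-15). In thinned nuclei, an Ntng1 molecule was found in 99.7% of M2, 89.9% of T1 and 26.1% of ET4, the last at 47.7% before thinning. Ntng2 behaved otherwise, with 82.2, 73.6 and 148 CPM in ET2 and at most 2.92 CPM in any other library (5.92 ± 0.21, adjusted p = 1.3e-17). Without mouse 1, M3 held no Ntng2 UMI, so the contrasts of Ntng2 could not be estimated in that alternative.

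Receptors for the secreted netrins were likewise divided. Dcc, the attractive receptor, was highest in M2 at 1630, 1316 and 1343 CPM, above M1 at 532, 682 and 806 CPM and T1 at 346, 394 and 376 CPM, and lowest in ET4 (57.4, 63.8 and 85.2 CPM) and ET1 (76.3, 68.5 and 63.2 CPM), which overlapped. The M2 libraries stood apart from all others, with a log2 fold change of 2.97 ± 0.14 (adjusted p = 1.6e-14), and Dcc was lower in ET4 (-2.44 ± 0.21) and ET1 (-2.21 ± 0.21). Thinned nuclei with a Dcc molecule made up 86.8% of M2 and 11.9% of ET1 (95.3% and 31.1% before thinning). Of the Unc5 receptors, 3 were highest in ET2. Unc5b was at 113, 89.6 and 112 CPM there, 30.9, 30.3 and 23.5 CPM in M1 and 1.35, 0.987 and 0.486 CPM in ET1 (3.83 ± 0.17 in ET2, adjusted p = 1.1e-15, and -3.86 ± 0.37 in ET1, adjusted p = 1e-08). Unc5c showed 1294, 1149 and 1201 CPM in ET2 and 470 to 622 CPM in M1, the next type, so that the groups did not overlap (1.90 ± 0.10, adjusted p = 2.2e-14). Unc5d, at 1147, 971 and 999 CPM in ET2 and 127, 130 and 177 CPM in ET4, overlapped M3 at its upper end and was higher in ET2 (1.04 ± 0.10; 0.91 and no longer past the fold threshold with the unnamed subclusters added) and lower in ET4 (-2.34 ± 0.13). Unc5a was low, with means of 14.0 CPM in M3 and 13.7 CPM in M1. Neo1, a Dcc relative that also binds repulsive guidance molecules, had means from 66.3 CPM in ET4 to 132 CPM in T1 and passed the fold threshold in no type. Among ligands, Ntn4 differed least of the tested genes (means 49.0 to 71.9 CPM, adjusted p = 0.013), a call that was lost under DESeq2 (adjusted p = 0.058), with library size alone (0.37), without mouse 1 (0.073) and without mouse 2 (0.21). Ntn1, Ntn5 and Draxin stayed under the filter, at means of at most 0.971 CPM.

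**Figure D3:**
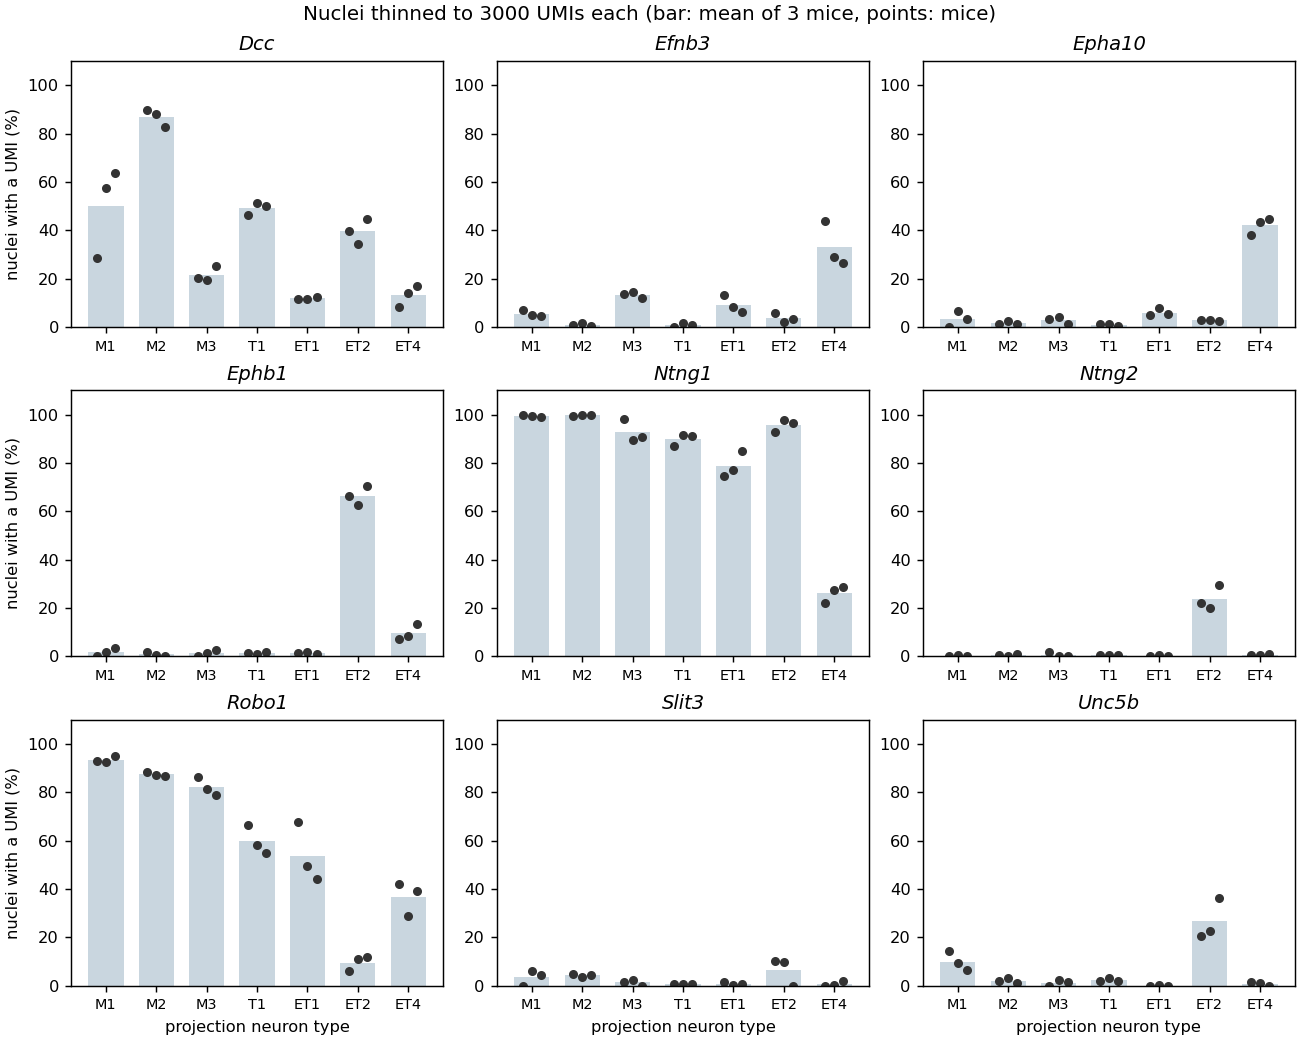
Share of nuclei (%) with at least 1 UMI of each of 9 genes after thinning to 3000 UMIs per nucleus, by projection neuron type, with bars for the mean and points for the 3 mice. Ephb1 and Ntng2 stand out in ET2, Epha10 and Efnb3 in ET4 and Dcc in M2, while Slit3 reaches at most 10.3% in a mouse.

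Set side by side, ET2 had 10 genes called higher, beside a background of 7%, and 6 called lower, beside 6.08%. The higher genes held 3 Unc5 receptors, Ntng2, Slit1, Slit3, Epha3, Epha4, Ephb1 and Ephb6, and the lower ones Robo1, Efna1, Efna5, Epha2, Epha5 and Epha6; of these, Epha4 and Slit3 lie near the Gad1 share in ET2. M1 had 11 higher (background 7.38%), among them Slit3, for which no mouse exceeded the level from the Gad1 share there. It had 1 lower, Epha2 (background 4.12%), a call lost without mouse 3 (-1.46, adjusted p = 0.2 by edgeR), while 2 were lower with the unnamed subclusters added. M2 had 6 higher (6.42%) and 10 lower (5.39%), and M3 had 5 higher (5.33%) and 3 lower (2.98%). T1 had 4 higher (6.18%) and 10 lower (5.61%), whereas ET1 had 0 higher (4.77% of all genes by edgeR, and with DESeq2 also 0) and 7 lower (3.42%), among them 3 netrin receptors and Ntng1. Without mouse 2, T1 had 6 lower in place of 10 and ET1 had 1 higher, Epha7, and without mouse 1, M3 had 1 lower in place of 3.

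To compare mitral with tufted classes, the mean of M1, M2 and M3 was set against that of T1, ET1, ET2 and ET4. Of 31 genes, 7 were higher in the mitral-like class (background 5.36%) and 3 were lower (background 3.46%), and the median log2 fold change of the 31 was 0.51. Of the 7 higher genes, Robo1 had the largest difference (3.09 ± 0.13, adjusted p = 2.3e-15), followed by Ntng1 (2.31 ± 0.10, adjusted p = 4.1e-15), Epha6 (2.02 ± 0.14), Dcc (1.98 ± 0.12), Efna1 (1.59 ± 0.26), Slit3 (1.55 ± 0.40) and Epha3 (1.30 ± 0.10). The Slit3 call was lost without mouse 1 (1.42, adjusted p = 0.08), and in M1 and M3 no mouse exceeded the Slit3 level from the Gad1 share. Ephb1 (-2.60 ± 0.22, adjusted p = 5e-10), Ntng2 (-2.11 ± 0.37) and Ephb2 (-1.38 ± 0.26) were lower, the last not without mouse 2 (-0.89, adjusted p = 0.073). Among the 7 higher genes, the mean of every mitral-like type exceeded that of every tufted-like type for Robo1 and Epha6 alone: Ntng1 in ET2 exceeded M3, Dcc in T1 and ET2 exceeded M3, Epha3 in ET2 exceeded every mitral-like type, and Slit3 in ET2 did so too. Efna1 in T1 exceeded M2. Of the lower genes, Ephb1 and Ntng2 had their high level in ET2.

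Projection neurons of the 7 types were next set against the 10 inhibitory clusters of the same mice, 3 against 3 libraries. Of 38 genes tested, 12 were higher in projection neurons (background 15.4%) and 13 lower (background 13.8%), with a median log2 fold change of -0.04. The 3 Slit genes were lower in projection neurons, and of the Robo receptors tested 2 were higher and 1 lower. Slit3 was at 9.07, 12.9 and 6.55 CPM in projection and 223, 246 and 251 CPM in inhibitory neurons, without overlap (-4.57 ± 0.24, adjusted p = 4.4e-06). Since no mouse exceeded the Slit3 level from the Gad1 share in M1, M3, T1, ET1 and ET4, the size of this fold change is uncertain. Slit2 (-3.05 ± 0.45) and Slit1 (-1.35 ± 0.41) were lower too, the latter not without mouse 2. Robo1 was at 1237, 967 and 1294 CPM against 221, 207 and 240 CPM (2.46 ± 0.13, adjusted p = 4.5e-06), and Robo2 was higher as well (1.36 ± 0.10), whereas Robo3, which modulates Slit responses of crossing axons, was at 0.0430, 0.290 and 0 CPM against 1.58, 3.46 and 1.67 CPM (-3.91 ± 0.70).

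In the netrin system, 3 of 6 netrin receptors and both netrin-G genes were higher in projection neurons (background 15.4%), while Ntn1 and Draxin were lower (background 13.8%) and Ntn4, Neo1, Unc5a and Dcc were not called. Ntng1 was at 2904, 2872 and 3531 CPM against 393, 299 and 371 CPM, without overlap (3.21 ± 0.14, adjusted p = 2.1e-06). Unc5b (2.76 ± 0.19), Unc5d (2.47 ± 0.15) and Unc5c (2.25 ± 0.42) were higher, while Dcc did not differ by the test (0.05 ± 0.16, adjusted p = 0.81), with 747, 517 and 666 CPM against 727, 535 and 710 CPM. Ntn1, the netrin ligand, was lower (-2.77 ± 0.27), at 0.352 to 0.645 CPM against 3.30 to 4.91 CPM. In the Eph system, Epha4 was at 2.32, 7.52 and 2.15 CPM against 113, 128 and 110 CPM (-4.72 ± 0.46, adjusted p = 7.4e-05), the projection values lying near the level from the Gad1 share. Epha6 (-1.39 ± 0.10), Epha10 (-1.47 ± 0.22) and Ephb6 (-1.72 ± 0.21) were lower, and Epha2 (4.25 ± 0.29), Efna1 (2.25 ± 0.24), Efna5 (1.83 ± 0.12) and Efnb2 (1.43 ± 0.12) were higher. Epha2 was at 6.10, 3.42 and 4.79 CPM against 0.269, 0.241 and 0.284 CPM, a low level on both sides. Ephb1 (1.05 ± 0.18) and Ntng2 (1.03 ± 0.28) passed narrowly, and both calls were lost with library size alone and without mouse 2. The Ntng2 mean in inhibitory neurons, 3.75 CPM, lay above that of each projection type but ET2, at 101 CPM. For Ephb1 the inhibitory mean, 16.5 CPM, lay above that of each type but ET2 and ET4. Conversely, Epha10, called lower, had a mean of 81.4 CPM in inhibitory neurons and 221 CPM in ET4.

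**Figure D4:**
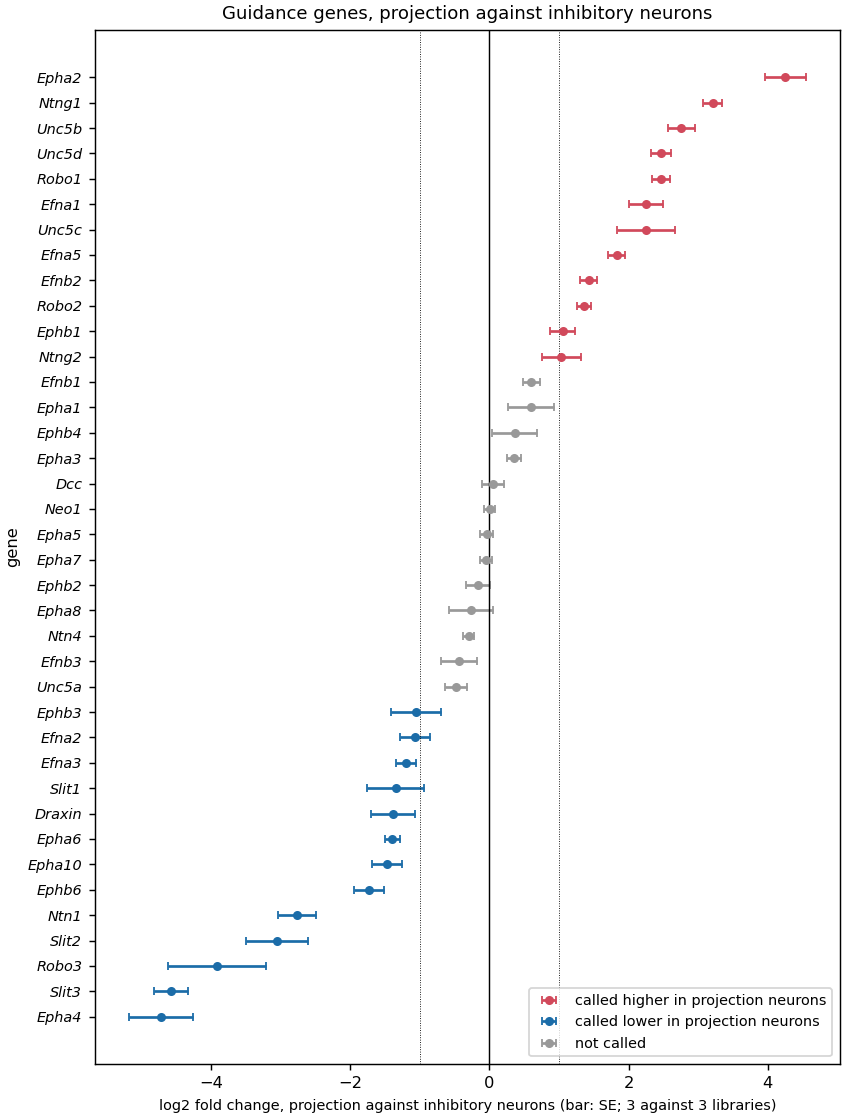
Log2 fold change of 38 guidance genes between projection and inhibitory neurons (points, with bars for the SE, 3 against 3 libraries), red where called higher and blue where called lower in projection neurons, with dotted lines at a log2 fold change of 1 and -1. Ntng1, Robo1, Unc5b, Unc5c and Unc5d lie to the right, and Epha4, Slit3, Robo3 and Slit2 lie farthest to the left.

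Within the 10 inhibitory clusters, 32 of 35 genes tested differed (background 59.2%), with Efna1 (adjusted p = 0.52), Efna2 (0.19) and Draxin (0.09) as exceptions. Each cluster was also set against the mean of the other clusters of all kinds, for the 28 genes that could be estimated. The numbers called higher and lower, with the background of each direction in brackets, were 6 and 6 in cluster 0 (6.83% and 9.57%), 10 and 2 in cluster 1 (6.84% and 7.13%), 5 and 12 in cluster 3 (6.68% and 10.9%), 4 and 8 in cluster 6 (4.95% and 5.22%) and 3 and 6 in cluster 7 (4.71% and 5.5%). They were 10 and 2 in cluster 8 (5.25% and 2.28%), 5 and 2 in cluster 10 (5.41% and 5.05%), 5 and 4 in cluster 12 (5.29% and 5.37%), 4 and 5 in cluster 15 (6.05% and 7.86%) and 7 and 6 in cluster 17 (7.28% and 5.98%). Without mouse 2, cluster 3 had 7 lower, cluster 10 had 3 higher and 1 lower, cluster 8 had 0 lower and cluster 1 had 1 lower. With other scalings cluster 3 had 2 higher, with DESeq2 3, and with no filter on low counts cluster 15 had 8 lower. Slit3 was at 386, 442 and 410 CPM in cluster 1, 285, 269 and 267 CPM in cluster 0, 229, 95.6 and 424 CPM in cluster 8 and 172, 183 and 174 CPM in cluster 3. Clusters 1 and 0 held most inhibitory nuclei (4754 and 7681) and did not overlap each other, whereas cluster 8 spread across them. In these contrasts Slit3 was higher in cluster 1 (3.01 ± 0.29, adjusted p = 1.2e-12), 0 (2.38 ± 0.31), 8 (2.13 ± 0.32) and 3 (1.76 ± 0.33). Slit3 was among the 10 leading genes of cluster 1 and also of an unnamed subcluster of 943 nuclei, which held 56.3, 112 and 89.9 CPM of Slit3 and was left out of the types. The leading genes of that subcluster also included Adamts19, Stxbp6 and Rgs6, which lead inhibitory cluster 0 or 1 as well. Its median UMIs per nucleus were 2.38 times those of all nuclei, and what kind of nuclei it holds was not tested. Slit2, at 107, 17.2 and 214 CPM, was higher in cluster 8 (3.61 ± 0.25, adjusted p = 4.9e-18) with wide spread between mice, and also in clusters 1, 7 and 15 of the inhibitory neurons. Slit1 was higher in cluster 12, at 41.4, 56.8 and 57.4 CPM (adjusted p = 4.4e-14), and also in inhibitory clusters 1, 6, 8 and 17 and in projection clusters 13 and 14.

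Dcc, known for its part in the migration of new interneurons, was highest in inhibitory cluster 10, at 4323, 3655 and 4671 CPM, followed by cluster 6 at 2382, 1871 and 2333 CPM and cluster 7 at 1721, 1384 and 1961 CPM. Cluster 10 did not overlap the others (3.47 ± 0.22, adjusted p = 1.4e-19) and clusters 6 (2.41 ± 0.25) and 7 (1.93 ± 0.26) overlapped. Markers of immature neurons moved with this only in part: at least 3 of 6 such markers were carried by clusters 10 and 7, and also by clusters 0, 1, 8, 12 and 15, but not by cluster 6, and their part in the result was not tested. Cluster 17, of 190 nuclei, carried Unc5d at 2990, 2803 and 3389 CPM (4.79 ± 0.18, adjusted p = 1.9e-29), Robo2 at 3274, 3307 and 3921 CPM (2.37 ± 0.17, adjusted p = 1.8e-17) and Ephb2 at 49.2, 45.0 and 55.4 CPM (2.76 ± 0.23, adjusted p = 7e-15), with Unc5d among its leading genes. Epha6 was highest in clusters 10 (3298, 2772 and 2919 CPM) and 1 (2306, 2202 and 2486 CPM), which did not overlap. Ntn4 was also highest in cluster 10 (205, 153 and 169 CPM; 1.90 ± 0.18, adjusted p = 2.8e-13), and Ephb1 among inhibitory clusters was higher in cluster 8 alone (112, 96.6 and 79.8 CPM; 2.55 ± 0.20).

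Over 21 clusters of all kinds, 39 genes were tested and 39 differed (background 86%). Contrasts could be estimated for 28, all of which were higher in at least 1 cluster (background 53.1%) and 26 of which were lower in at least 1 (background 48.2%). Outside neurons, the numbers called higher and lower, with the backgrounds in brackets, were 7 and 11 in oligodendrocyte-like nuclei (9.28% and 9.27%), 5 and 7 in precursor-like nuclei (8.37% and 5.86%), 7 and 7 in ensheathing-like nuclei (12.3% and 6.19%), 4 and 6 in astrocyte-like nuclei (10.8% and 4.46%) and 5 and 5 in cluster 18 (9.71% and 7.56%). These counts depend on single mice: without mouse 1, 4 and 5 were called in oligodendrocyte-like nuclei and 0 lower in cluster 18; without mouse 2, 3 were higher in ensheathing-like and 3 in precursor-like nuclei; and without mouse 3, 0 were lower in astrocyte-like, 4 in ensheathing-like, 6 in oligodendrocyte-like and 3 in cluster 18. With other scalings, 3 or 1 were lower in cluster 18. In the oligodendrocyte-like cluster, Unc5c was at 1300, 1073 and 2158 CPM (3.98 ± 0.20, adjusted p = 6.1e-25), Efnb3 at 268, 129 and 193 CPM (3.04 ± 0.21) and Ephb1 at 211, 162 and 293 CPM (3.67 ± 0.25). These exceeded the level from the Gad1 share, which is 22.4% in that cluster, in every mouse. The precursor-like cluster, which held only 10 nuclei in mouse 3, had Ephb1 at 399, 111 and 261 CPM (3.81 ± 0.25), Unc5c at 764, 820 and 709 CPM (2.86 ± 0.22) and Ntn1 at 63.3, 80.8 and 32.6 CPM. Thus Ephb1 and Unc5c, highest in ET2 among projection neurons, were also high in both clusters of the oligodendrocyte lineage.

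Nuclei with markers of ensheathing glia, which wrap the incoming sensory axons, were highest of all clusters for Efna5, at 841, 767 and 979 CPM (2.92 ± 0.17, adjusted p = 1.2e-21), and had Ntng2 at 80.8, 81.6 and 108 CPM (4.07 ± 0.21, adjusted p = 5.4e-24), Ntn1 at 70.3, 45.9 and 51.8 CPM and Ephb3 at 46.4, 16.2 and 23.9 CPM. Cluster 18, of 173 nuclei, was left unnamed: it carried 5 of 5 endothelial and mural markers, but its 10 leading genes included Dcn, Slc6a13, Slc6a20a and Mgp, known from fibroblasts and the meninges, beside the endothelial genes Ly6c1, Slco1a4 and Ly6a. It held Slit2 at 310, 172 and 81.2 CPM (3.96 ± 0.36, adjusted p = 6.4e-14) and Robo1 at 703, 800 and 1190 CPM (1.25 ± 0.25). In the same cluster Ephb4, the venous EphB receptor, was at 53.6, 13.8 and 33.4 CPM on 9, 10 and 7 UMIs, and Robo4, the endothelial Robo, at 17.9, 6.90 and 14.3 CPM on 3, 5 and 3 UMIs. Among astrocyte-like nuclei Epha4 was at 104, 111 and 116 CPM (1.52 ± 0.36), and in microglia-like nuclei no guidance gene was called higher (background 6.88%) and Epha7 and Neo1 were lower (background 4.83%), both calls being lost without mouse 2 and that of Neo1 also without mouse 1, under DESeq2 and under other scalings. Without mouse 3, 6 were lower in microglia-like nuclei, and without mouse 2, 1 was higher, Robo1. The mean Slit3 levels of the glial and microglial groups and of cluster 18, from 33.4 CPM in oligodendrocyte-like nuclei upward, lay under the level from the Gad1 share, except for precursor-like nuclei with 77.2 CPM beside 46.7 CPM (2 of 3 mice above).

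**Figure D5:**
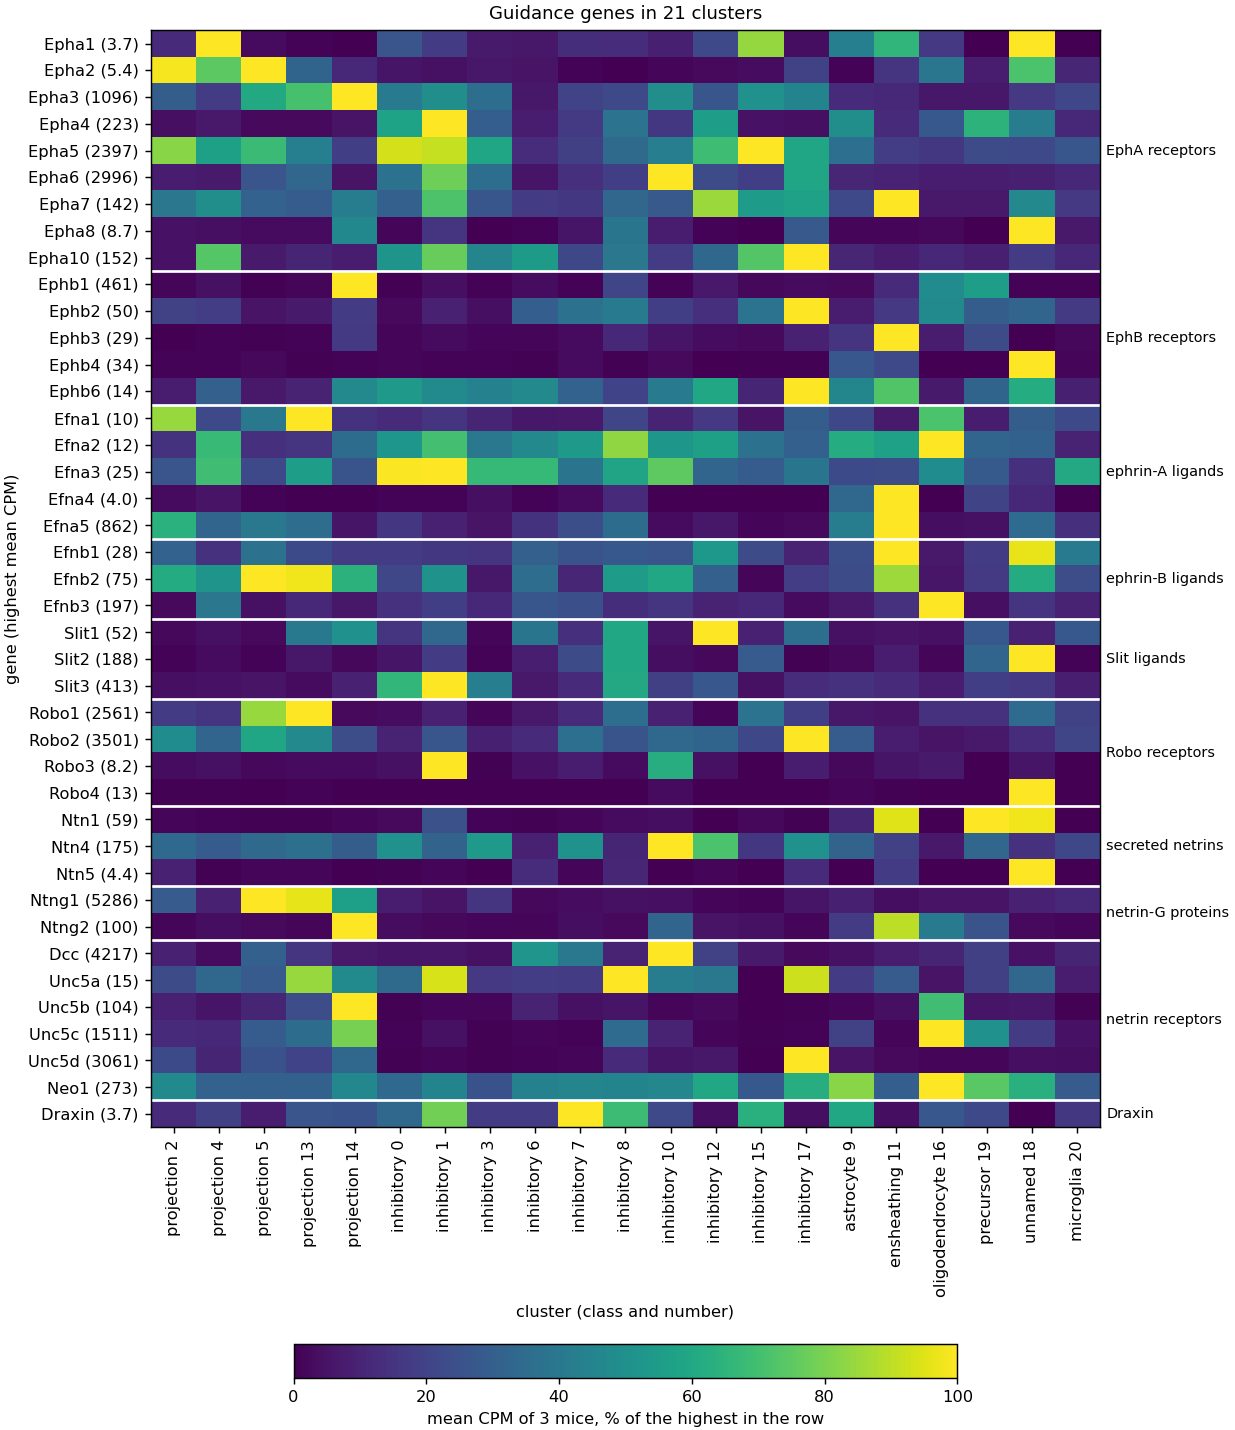
Mean CPM of the guidance genes in the clusters, each row scaled to its own highest cluster (colour, % of the highest) with that highest mean CPM in brackets. Slit3 is brightest in inhibitory cluster 1, Dcc in cluster 10, Unc5d and Robo2 in cluster 17, Efna5 in the ensheathing cluster 11 and Unc5c in the oligodendrocyte-like cluster 16.

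A further 27 genes of the same pathways were listed by role, with earlier results of these data known. Of these, 26 differed among the projection types (background 64.8%), with Rasa1, a GTPase-activating protein recruited by Eph receptors, as the exception (adjusted p = 0.054). With the mouse as a replicate block, 27 of the 27 differed. Between projection and inhibitory neurons, 6 of the 27 were higher (background 15.4%) and 10 lower (background 13.8%). The Robo effectors Srgap1 (3.83 ± 0.26) and Srgap2 (2.37 ± 0.12) and the Dcc effector Dock1 (3.08 ± 0.17) were higher. So were the neogenin ligand Rgma (2.12 ± 0.23), the EphA effector Chn1 (1.79 ± 0.11) and Vav3 (1.45 ± 0.14). Srgap3, also a Robo effector, was not called (0.27 ± 0.08). The receptors Dcc and Neo1 were not called either, and the relation of these genes to their receptors was not tested. The netrin co-receptor Dscam (-3.76 ± 0.28), the Unc5 ligand Flrt2 (-2.28 ± 0.24) and the ephrin-B adaptor Grip1 (-2.18 ± 0.17) were lowest, followed by Vav2, Rasa1, Fyn, Tiam1, Ngef, Nck2 and Enah.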

How the data were processed

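Raw UMI counts per gene and barcode were deposited by the authors, who used Cell Ranger, version 3.0.2 in the headers, and build mm10 (GRCm38) to make them from Chromium 3' v3 libraries of nuclei sorted for GFP and the DNA dye DRAQ5. A deposited table, also used here, gives the nuclei that the authors kept after filters on genes and on mitochondrial UMIs, with the mouse, cluster, subcluster and UMI count of each. The percent of mitochondrial UMIs in that table was also made by the authors. Its other deposited columns, such as plotting coordinates and normalised scores, were not used. A forward scatter gate during the sort was set to exclude doublets, but it acts before nuclei are loaded into droplets. No doublet caller was run, so nuclei that shared a droplet were not removed here.

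UMI totals per nucleus equalled those of the deposited table for all 31703 nuclei. Counts were summed per mouse and cluster or subcluster, for groups with at least 10 nuclei in each mouse, with totals of 58526996, 213891496 and 62929479 UMIs and medians of 7940, 8420 and 10568 UMIs per nucleus in mice 1, 2 and 3. Clusters were named from marker genes (at least 3 carried by the nuclei), the type markers being those the study chose on these samples. Sums were tested with edgeR 4.0.16 (R 4.3.3; TMM scaling, low counts removed with filterByExpr, quasi-likelihood test, Benjamini-Hochberg adjustment over all genes tested). A gene was called at an adjusted p under 0.05 and, for a contrast, an absolute log2 fold change above 1. A contrast over a group without any UMI of a gene cannot be estimated and was left out. SE is that of the log2 fold change. CPM carry no TMM scaling. A count of 0 allows up to 3 UMIs, for counting error only. The procedure was tested on simulated counts. Genes described with full statistics were called and had at least 5 CPM in their highest group, up to 10 per direction, with Slit3 and Ntng1 always given; a few rarer ones were added after their values were seen. Genes and lists were chosen with earlier results of these data known.

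Mice pair the groups, because each mouse gave all of them; deviations of groups from their means correlated by 0.11 on average within a mouse and by -0.05 between mice across projection types, and by 0.28 and -0.14 across neuron classes. Gene positions are from the GENCODE annotation of GRCm38, and promoter windows from RefSeq (GRCm38.p6). No listed gene overlapped another on its strand, and listed genes shared at most 0.149% of their 31-base words with each other. Alternatives were other scalings, no low-count filter, DESeq2 1.42.0, the mouse as a block, each mouse left out, nuclei with at least 1500 genes, added subclusters and a left-out thin library.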

Additional observations from a re-analysis of the deposited data

How the results depend on the processing

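With the mouse as a replicate block, 34 guidance genes differed among projection types, as without it, and the block ended no call among projection types, between neuron classes or among inhibitory clusters and added 2, Slit1 and Slit3 as lower in ET1; it added 13 and ended 2 calls among all clusters, Ephb2 in cluster 7 (0.94) and Efna5 in cluster 18 (0.99), which moved just under the fold threshold. The counts of genes over all types, over all clusters and between classes stayed within 1.5 times of their values in each alternative that was run, whereas counts in single types or clusters moved more, by the values given beside them: 32 to 34 genes differed among projection types, 21 to 25 were higher in at least 1 type, and 33 to 41 differed among clusters. Of 42 counts in single clusters, 5, 12 and 7 moved by over 1.5 times without mouse 1, 2 and 3. Of the single calls, 105 of 135 among projection types, 19 of 25 between neuron classes, 231 of 295 among clusters and 29 of 32 among inhibitory clusters were kept in every alternative that could be run, and none reversed. Among projection types, 14, 18 and 5 calls ended without mouse 1, 2 and 3, and 9 when the unnamed subclusters were added. Those ended without mouse 1 as well as without mouse 2 were Efna2 in T1, Efnb1 in ET1, Epha2 and Epha4 in ET2, Ephb6 in ET2 and T1, Unc5a in M3 and the F test of Ntn4. Without mouse 1 these also included the F test of Epha4 (adjusted p = 0.065), Epha4 in M2, Epha7 in M3 and Slit3 between mitral-like and tufted-like types, and without mouse 1 or mouse 3 Epha4 in T1 and Epha6 in ET2. Without mouse 2 they also included Efna1 in M1, ET2 and ET4, Slit3 in M1, Unc5c and Ephb1 in T1, Ephb6 in ET4 and Ephb2 between mitral-like and tufted-like types, without mouse 2 or mouse 3 Epha3 in M1 and Ntng2 in M3, and without mouse 3 Epha2 in M1. The cause was not tested. Leaving out the M1 library of mouse 1 ended no call. Between neuron classes, Ephb3 was lost without each mouse in turn, Draxin without mouse 1 and Efna2 without mouse 3. Limiting the inhibitory clusters to those with at least 100 nuclei in each mouse, an alternative chosen after seeing the data, ended the call of Efnb1 (adjusted p = 0.084). Leaving out a mouse left some contrasts without any UMI in a group, so these could not be estimated, most often without mouse 2 in the contrasts of single clusters. Depth limits the genes under about 5 CPM and the M1, M3 and precursor-like groups.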
